A study of Mus musculus with 6 samples.

Results

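The miRNAs miR-146a-5p, miR-146b-5p, miR-155-5p and miR-147-3p (mmu-miR-146a-5p, mmu-miR-146b-5p, mmu-miR-155-5p and mmu-miR-147-3p in the count tables), all known to be induced through NF-κB in inflamed tissue, were followed in the renal cortex of mice with and without tofogliflozin. They are 4 of the 1900 mature miRNA names in those tables and were taken by name. The set was chosen by a reading of these same counts, the log2 fold changes between mice with and without tofogliflozin among them, so its differences between the groups are given as a description. Standard errors and intervals of log2 fold changes give the uncertainty of the fitted group difference, with variability estimated partly across all tested miRNAs. SDs show the spread between mice. Counts of calls are set beside the share over all miRNAs, but neither these nor the intervals support a difference. Small RNA was sequenced from 6 C57BL/6 mice. All 6 received the HF/HC/HS/BA diet, a feed rich in fat and cholesterol with bile salt, for 8 weeks. Of these, 3 mice had the diet alone (titled NASH) and 3 mice had feed that also held tofogliflozin (titled NASHTofo). Tofogliflozin inhibits SGLT2, the glucose transporter of the proximal tubule. Age and sex are not given in the labels, and mice on a normal diet were not analysed here, so no value below compares the diet with its absence.

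NF-κB is a transcription factor that is released when Toll-like or cytokine receptors are triggered, and it switches on genes of the innate immune response together with a small set of miRNAs. miR-146a and miR-146b repress the adaptors IRAK1 and TRAF6 and so act as a brake on the same pathway. miR-155, cut from the non-coding transcript BIC, is raised in activated macrophages and lymphocytes and represses inhibitors of cytokine signalling such as SOCS1. miR-147 is induced in macrophages by Toll-like receptor ligands and is described as damping their response. In the kidney miR-146a is known both from infiltrating leukocytes and from injured tubule cells.

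A miRNA selects its targets largely through its seed, bases 2 to 8 from the 5′ end. RefSeq on GRCm38.p6 held 3 of the 4 mature sequences, which are shown 5′ to 3′ with the seed in capitals because it is what the miR-146 paralogs share. miR-147-3p is given by name only.
miR-146a-5p: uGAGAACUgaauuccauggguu
miR-146b-5p: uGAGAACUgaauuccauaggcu
miR-155-5p: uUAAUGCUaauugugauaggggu
The miR-146 paralogs have the seed GAGAACU in common, and no other mouse mature miRNA in the table carries it. RefSeq held 1603 of the 1900 names in the count tables, so the other names were not searched for this seed. The paralogs match in 20 of 22 bases. Counted from the 5′ end and from miR-146a-5p to miR-146b-5p, the differences are G18A and U21C, both outside the seed. A read that ends before the first of these bases cannot be given to either paralog. miR-155-5p is 23 bases long, and its seed UAAUGCU occurs in no other mature miRNA of the table.

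The hairpins come from separate loci, given here in GRCm38 (mm10) with the GENCODE M21 annotation. That of miR-146a lies at chr11:43374397-43374461 on the minus strand and overlaps no other annotated gene, the nearest being the lincRNA Gm12148 at a distance of 11021 bases. miR-146b lies at chr19:46342762-46342870 on the plus strand in an intron of Mfsd13a, a gene on the same strand. miR-155 lies at chr16:84714140-84714204 on the plus strand in exon 2 of Mir155hg, the mouse BIC transcript. miR-147 lies at chr2:122640803-122640881 on the plus strand in the last exon and the 3′ UTR of coding transcripts of AA467197 (Nmes1), which encodes a small mitochondrial protein. The hairpins of the first 3 are shown with both mature arms in capitals, since the counts below come almost wholly from the first arm.
Mir146: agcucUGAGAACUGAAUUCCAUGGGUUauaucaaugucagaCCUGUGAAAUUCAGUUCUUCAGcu
Mir146b: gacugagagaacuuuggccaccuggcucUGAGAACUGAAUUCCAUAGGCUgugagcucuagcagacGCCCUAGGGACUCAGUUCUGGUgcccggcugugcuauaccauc
Mir155: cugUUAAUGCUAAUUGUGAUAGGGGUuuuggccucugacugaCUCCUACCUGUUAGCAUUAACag

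Over the 6 libraries, miR-146a-5p had 144669 counts and miR-146a-3p, its opposite arm, had 0 in every library, which allows up to 0.00207% of the miR-146a-5p counts (3 counts as the limit). The 3p arm of miR-146b had 51 counts beside 46415 of miR-146b-5p. miR-155-5p held 3963 counts and miR-155-3p 16. At the miR-147 hairpin the used arm is the other one, with 382 counts for miR-147-3p and 6 for miR-147-5p. The arm studied here thus took 99.9%, 99.6% and 98.5% of the counts of the miR-146b, miR-155 and miR-147 hairpins. None of the opposite arms passed the filter on low counts, so none was tested.

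Depth differed between the libraries, which mattered most for miR-147-3p, the rarest of the set. With repeated rows reduced to the largest, totals ran from 6643638 counts in tofogliflozin replicate 2 to 22886200 in diet-only replicate 1. The shallowest library also stood apart on the first principal component of log2 CPM, which held 52.0% of the variance, at -13.8 where the others lay between -0.14 and 6.17. Kidney tubule markers (miR-192-5p, miR-194-5p, miR-204-5p, miR-30a-5p and miR-10a-5p) were all present and summed to 147541 to 171556 CPM, that is, counts scaled to a common library size with TMM factors for composition. One of them, miR-204-5p, moved with the groups without overlap, from 275 ± 21.6 CPM to 442 ± 62.3 CPM with tofogliflozin (SD, n = 3 each; log2 fold change 0.69 ± 0.15, adjusted p = 0.387 by edgeR). That adjusted p was the smallest of all tested miRNAs, and the part of tubule differences in the results below was not tested. Hepatocyte miR-122-5p was at 40.7 to 78.6 CPM in 5 libraries and 245 CPM in tofogliflozin replicate 2. Erythroid markers (miR-451a and miR-144-3p) summed to 3.74 to 15.4 CPM, endothelial ones (both arms of miR-126a) to 15285 to 22210 CPM, and striated muscle ones (miR-1a-3p, miR-133a-3p and miR-206-3p) to 92.2 to 126 CPM.

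The 4 miRNAs spanned a wide range of levels and were detected in all 6 libraries. A read covers a whole miRNA of about the same length, so CPM were compared without dividing by length, although ligation captures some miRNA ends better than others. miR-146a-5p stood at 1589 ± 533 CPM (SD, n = 6 libraries) and ranked 46 by mean CPM among all mature names. miR-146b-5p followed at 545 ± 151 CPM (rank 80), miR-155-5p at 48.9 ± 20.4 CPM (rank 167) and miR-147-3p at 4.06 ± 2.47 CPM (rank 305). The order was the same in each library. No neighbours in it overlapped, since the lowest miR-146a-5p value was 1202 CPM and the highest miR-146b-5p value 777 CPM. The lowest miR-146b-5p value, 379 CPM, was above the highest of miR-155-5p, 88.6 CPM, whose lowest, 28.6 CPM, was above the highest of miR-147-3p, 8.34 CPM.

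miR-146a-5p, the main brake on Toll-like receptor signalling in the set, was lower in every mouse given tofogliflozin than in any mouse on the diet alone. Its level was 1695, 2616 and 1427 CPM in diet-only replicates 1, 2 and 3, from 38494, 35771 and 21965 counts. With tofogliflozin it was 1363, 1232 and 1202 CPM, from 18435, 8264 and 21740 counts. The groups did not overlap, but diet-only replicate 3 lay close to tofogliflozin replicate 1, and diet-only replicate 2 was far above the rest. Group means (SD, n = 3 each) were 1912 ± 624 and 1266 ± 85.7 CPM. The fitted log2 fold change was -0.60 ± 0.22 (SE; 95% interval -1.10 to -0.09), or 0.662-fold. Without diet-only replicate 2 the log2 fold change was -0.27. Counting error was small, at most 1.10% of a value, against a coefficient of variation between mice of 32.6% on the diet alone and 6.77% with tofogliflozin. Of 460 tested miRNAs, 83 varied more than miR-146a-5p among the diet-only mice and 410 among the treated mice.

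miR-146b-5p, which has the same seed, did not separate the groups. Diet-only replicates 1, 2 and 3 had 441, 777 and 475 CPM, and tofogliflozin replicates 1, 2 and 3 had 525, 671 and 379 CPM. Diet-only replicate 2 was again the highest, and the highest treated value came from tofogliflozin replicate 2. The means (SD, n = 3 each) were 564 ± 185 and 525 ± 146 CPM. This gave a log2 fold change of -0.10 ± 0.27 (SE; 95% interval -0.74 to 0.53). The sign changed when diet-only replicate 2 (0.24) or tofogliflozin replicate 3 (0.11) was left out.

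**Figure D1:**
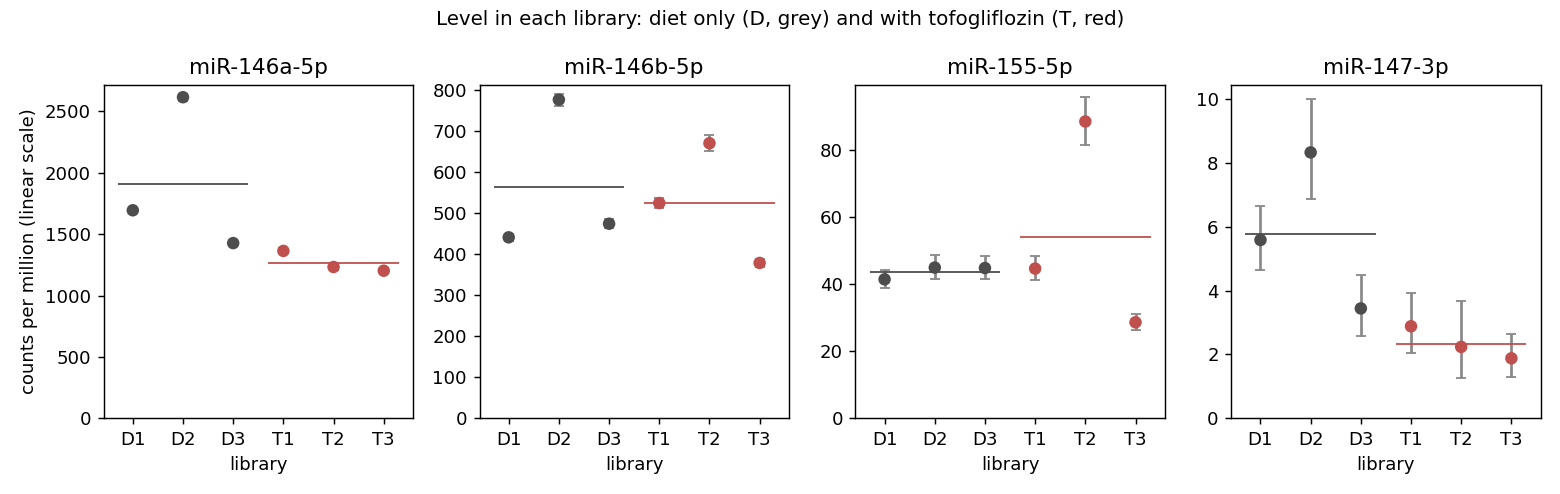
Level of each miRNA in CPM (y axes, linear, from 0) in the 3 diet-only libraries (D, grey) and the 3 tofogliflozin libraries (T, red). Points are libraries, bars are 95% Poisson intervals for counting error, and lines are group means. For miR-146a-5p and miR-147-3p all red points lie under all grey ones, and D2 is highest; for miR-155-5p T2 stands alone at 88.6 CPM.

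Because the paralogs were counted in the same libraries, their ratio is free of the scaling between libraries. miR-146a-5p outnumbered miR-146b-5p by 3.84, 3.37 and 3.01 times in diet-only replicates 1, 2 and 3, and by 2.60, 1.84 and 3.17 times in tofogliflozin replicates 1, 2 and 3. The ranges overlapped, since tofogliflozin replicate 3 exceeded diet-only replicate 3, and the lowest ratio belonged to tofogliflozin replicate 2. Mean ratios were 3.40 ± 0.417 and 2.53 ± 0.670 (SD, n = 3 each). miR-146a-5p thus made up 77.2% ± 2.15 and 71.0% ± 5.74 of the counts of both paralogs together. Both paralogs together stood at 2136, 3393 and 1902 CPM in the diet-only mice and 1889, 1904 and 1581 CPM in the treated mice. In that sum the groups overlapped by a narrow margin, as tofogliflozin replicate 2 lay just above diet-only replicate 3.

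**Figure D2:**
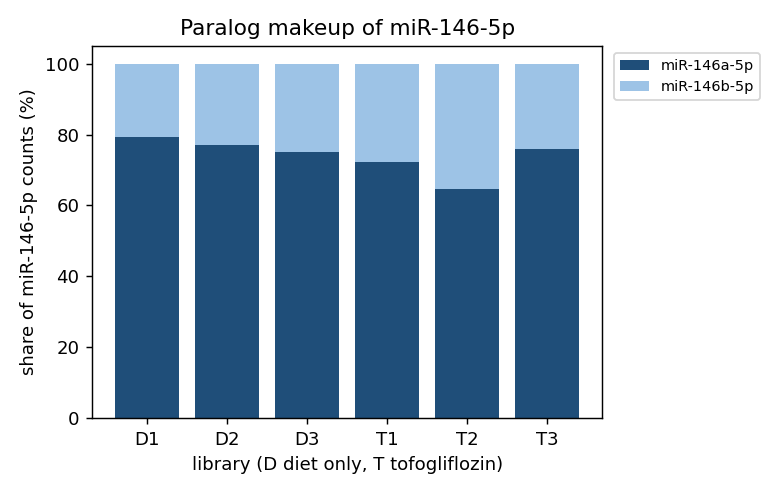
Share of miR-146-5p counts (y axis, %) taken by miR-146a-5p (dark) and miR-146b-5p (light) in each library (x axis; D diet only, T tofogliflozin). The dark share is between 64.7% in T2 and 79.3% in D1.

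miR-155-5p, which promotes macrophage and lymphocyte activation, was almost level across the diet-only mice and scattered among the treated ones. Its values were 41.5, 45.0 and 44.8 CPM on the diet alone, from 942, 615 and 690 counts. With tofogliflozin they were 44.7, 88.6 and 28.6 CPM, from 604, 594 and 518 counts. The treated mice thus gave both the highest and the lowest value, with tofogliflozin replicate 1 inside the diet-only range. The coefficient of variation was 4.53% on the diet alone, about the size of the counting error of 3.26% to 4.03%, and 57.5% with tofogliflozin. Among the 460 tested miRNAs the median was 13.96% on the diet alone and 26.5% with tofogliflozin. Means (SD, n = 3 each) were 43.8 ± 1.98 and 54.0 ± 31.0 CPM, for a log2 fold change of 0.29 ± 0.37 (SE; 95% interval -0.56 to 1.15). Without tofogliflozin replicate 2, the shallow library with the high miR-122-5p value, the log2 fold change turned to -0.26, and without tofogliflozin replicate 3 it was 0.63. The part of that library's other differences in the miR-155-5p value was not tested.

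miR-147-3p, the macrophage miRNA read from the Nmes1 transcript, was the rarest of the set and had the lowest fold change. It stood at 5.59, 8.34 and 3.44 CPM on the diet alone, from 127, 114 and 53 counts. With tofogliflozin it was at 2.88, 2.24 and 1.88 CPM, from 39, 15 and 34 counts. As for miR-146a-5p, every treated value was below every diet-only value, and diet-only replicate 2 was the highest. At these counts the 95% Poisson interval of diet-only replicate 3 (2.58 to 4.50 CPM) overlapped those of tofogliflozin replicates 1 (2.05 to 3.94 CPM), 2 (1.25 to 3.69 CPM) and 3 (1.30 to 2.63 CPM). Overlap of such intervals is not a test of which value is higher, and for tofogliflozin replicate 3 it was narrow. The order of these libraries was not tested. These intervals cover counting error only, since reads carry no molecular identifiers. Means (SD, n = 3 each) were 5.79 ± 2.45 and 2.33 ± 0.509 CPM, with a fitted log2 fold change of -1.31 ± 0.38 (SE; 95% interval -2.18 to -0.43), or 0.404-fold. Leaving out diet-only replicate 3 gave the lowest value, -1.56, and leaving out diet-only replicate 2 the highest, -0.93.

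Across all miRNAs, edgeR's quasi-likelihood test called 0 of 460 at an adjusted p of 0.05 (0.00% lower and 0.00% higher), and 0 of the 4 described here. Before adjustment 23 had a p under 0.05, 11 lower (2.39%) and 12 higher (2.61%). That count was 10 with the replicate number as a block and 63 with no filter on low counts, and with a library left out it ran from 11 (diet-only replicate 2) to 75 (tofogliflozin replicate 3). DESeq2 called 1, miR-346-5p, and had 24 at an unadjusted p under 0.05. Without the filter on low counts edgeR called 10 of 1026, of which 2 were lower, miR-146a-5p and miR-147-3p, and 8 higher, miR-222-3p and miR-204-5p among them. The groups did not overlap in the lower direction for 2 of the 4, where this held for 6.96% of all tested miRNAs. The log2 fold change was below 0 for 3 of the 4 and for 50.9% of all tested. Ordered from the lowest log2 fold change, miR-147-3p was at rank 2 of 460 and miR-146a-5p at rank 18. miR-146b-5p and miR-155-5p were at ranks 165 and 372. Left-out libraries moved miR-146a-5p to rank 72 of 487 without diet-only replicate 2, 47 of 476 without tofogliflozin replicate 3 and 36 of 488 without tofogliflozin replicate 2. miR-147-3p went to rank 7 in the first 2 of these. The median over all tested miRNAs was -0.01. Since the set was chosen with this contrast known, its counts beside these shares carry no support of their own.

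**Figure D3:**
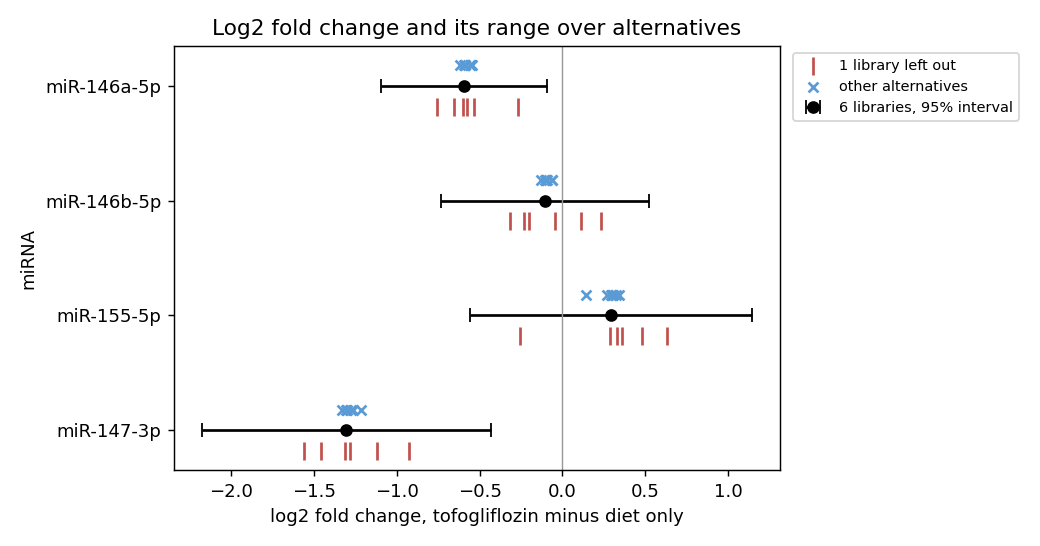
Log2 fold change (x axis, tofogliflozin minus diet only) of each miRNA (y axis), with black points and bars for the fit of all 6 libraries and its 95% interval. Red ticks leave out 1 library and blue crosses are the other alternatives. miR-147-3p and miR-146a-5p stay below 0 throughout, from -1.56 to -0.93 and from -0.76 to -0.27, and the red ticks of miR-146b-5p and miR-155-5p fall on both sides of 0.

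The 4 miRNAs did not move as one across the libraries. As the root mean square difference of log2 CPM, each centred on its own mean over the 6 libraries, miR-146a-5p was 0.34 from miR-146b-5p, 0.37 from miR-147-3p and 0.64 from miR-155-5p. miR-155-5p and miR-147-3p were the farthest apart, at 0.89, and miR-146b-5p was 0.36 from miR-155-5p and 0.64 from miR-147-3p. The median distance to tested miRNAs outside the set was 0.49 for miR-146a-5p, 0.47 for miR-146b-5p, 0.53 for miR-155-5p and 0.77 for miR-147-3p. The distances of 0.34, 0.37 and 0.36 were below both medians of their pairs. A miRNA at 1 level in all libraries would lie 0.38 from miR-146a-5p and 0.35 from miR-146b-5p. It would lie 0.48 from miR-155-5p and 0.72 from miR-147-3p. The distance of 0.36 was thus not below that of miR-146b-5p to such a flat miRNA. Those of 0.34 and 0.37 were only slightly below the smaller such value of their pairs. The fold changes known when the set was chosen also enter these distances. In diet-only replicate 2, miR-147-3p was 1.20, miR-146a-5p 0.77 and miR-146b-5p 0.56 above its own mean, while miR-155-5p was at -0.03. In tofogliflozin replicate 2, miR-155-5p was 0.94 and miR-146b-5p 0.35 above its mean, with miR-146a-5p at -0.31 and miR-147-3p at -0.64. All 4 were below their means in tofogliflozin replicate 3.

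**Figure D4:**
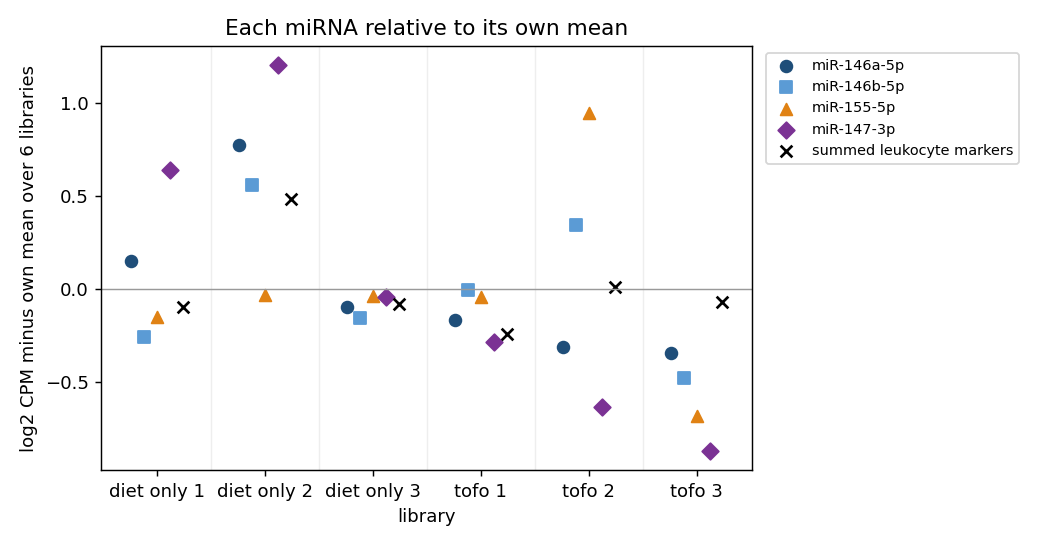
Log2 CPM minus the mean over the 6 libraries (y axis) of the 4 miRNAs, and log2 of the summed leukocyte markers treated alike (crosses), in each library (x axis). Diet-only replicate 2 has the highest miR-146a-5p, miR-146b-5p and miR-147-3p, and tofogliflozin replicate 2 has the highest miR-155-5p, at 0.94.

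Leukocyte miRNAs were measured beside them, because these miRNAs are abundant in leukocytes and, in bulk tissue, fewer cells of a type and less RNA per cell cannot be told apart. The markers were both arms of miR-142, miR-223-3p of myeloid cells, miR-150-5p of mature lymphocytes and miR-342-3p. All 5 had log2 fold changes below 0, with a median of -0.21, and 0 of 5 passed the test. miR-142-5p was at 17.4 ± 7.07 CPM in diet-only and 11.1 ± 2.29 CPM in treated mice (SD, n = 3 each; log2 fold change -0.63 ± 0.31, adjusted p = 0.854 by edgeR). miR-223-3p was at 4.27 ± 0.508 and 3.29 ± 0.715 CPM (-0.40 ± 0.27). miR-142-3p (-0.21 ± 0.27), miR-342-3p (-0.19 ± 0.41) and miR-150-5p (-0.13 ± 0.18) were nearer to 0, and the groups overlapped for each of the 5. None of these markers was at 0 in any library.

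Summed, the leukocyte markers stood at 99.0, 148 and 100.1 CPM in diet-only replicates 1, 2 and 3 and at 89.6, 107 and 101 CPM in tofogliflozin replicates 1, 2 and 3. Diet-only replicate 2, which had the highest miR-146a-5p, miR-146b-5p and miR-147-3p, therefore also had the highest leukocyte sum, while the other 5 libraries lay close together. In every library miR-150-5p of mature lymphocytes was the largest part of the sum (46.8 to 62.2 CPM). Myeloid miR-223-3p was the smallest (2.60 to 4.83 CPM). Divided by that sum, miR-146a-5p was at 17.1, 17.6 and 14.3 on the diet alone and 15.2, 11.6 and 11.9 with tofogliflozin, so that the groups overlapped. For miR-147-3p the same ratio was 0.0565, 0.0562 and 0.0344 against 0.0322, 0.0210 and 0.0186, and the groups did not overlap. That gap was small beside the counting error of miR-147-3p, 13.7% in diet-only replicate 3 and 16.0% in tofogliflozin replicate 1. The share of all tested miRNAs that separate after this division is not given here. miR-155-5p was at 0.419, 0.303 and 0.448 against 0.499, 0.831 and 0.284. The part of leukocyte content in these differences was not tested.

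Other miRNAs of the pathway were compared from a pair of lists. Of 12 miRNAs described as induced by NF-κB or Toll-like receptors, 12 were tested, 9 with a log2 fold change above 0 and 3 below. Over all tested miRNAs 50.9% were below 0. Among the 9, miR-132-3p, miR-34a-5p and let-7e-5p lay near 0, at 0.07, 0.05 and 0.03. The median of the 12 was 0.09, and 0 passed the test in either direction. The 4 with the smallest p were miR-212-3p, a CREB-linked miRNA (0.65 ± 0.41), miR-222-3p (0.83 ± 0.53), miR-125a-5p (0.14 ± 0.10) and miR-221-3p (0.28 ± 0.21), with adjusted p of 0.854, 0.854, 0.859 and 0.859 by edgeR. Without the filter on low counts miR-222-3p was called higher (log2 fold change 0.80, adjusted p = 2.17e-04 by edgeR). It was at 3573, 8153 and 1368 CPM with tofogliflozin against 2356, 2214 and 2780 CPM on the diet alone. Like miR-155-5p, it was highest in tofogliflozin replicate 2 and lowest in tofogliflozin replicate 3. That order was not particular to the pathway. Tubule miR-30a-5p had it too (21351, 29767 and 16137 CPM), and tubule miR-194-5p had the reverse (3347, 2614 and 3598 CPM). Those libraries, tofogliflozin replicates 2 and 3, were also the extremes of the first principal component (-13.8 and 6.17). miR-125a-5p stood at 12967, 13737 and 12452 CPM in diet-only mice and at 14742, 14088 and 14303 CPM in treated mice, without overlap. The groups did not overlap for 2 of the 12 in the higher direction, miR-125a-5p and miR-212-3p, and for 1 in the lower, miR-187-3p (-0.11 ± 0.11), which was picked out after its values were seen. miR-212-3p was rare, at 0.53, 0.80 and 0.65 CPM in diet-only mice and 0.89, 1.19 and 1.05 CPM in treated mice. In these libraries 3 counts equal 0.13 to 0.45 CPM, so its separation rests on few counts. Over all tested miRNAs, non-overlap in the lower direction held for 6.96%. The share in the higher direction is not given here, so 2 of 12 cannot be weighed against it.

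Of 10 miRNAs described as acting on NF-κB or Toll-like receptor signalling, 9 were tested and miR-124-3p was at 0 in all libraries. Among the 9, 3 had a log2 fold change above 0 and 6 below, with a median of -0.03, and 0 passed the test. miR-181b-5p, which represses the importin that carries NF-κB into the nucleus, stood at 279, 336 and 354 CPM in diet-only mice and 408, 435 and 379 CPM in treated mice. These groups did not overlap, and its log2 fold change was 0.34 ± 0.14 (adjusted p = 0.854 by edgeR). miR-223-3p, also a leukocyte marker, was next, followed by miR-16-5p (-0.15 ± 0.12) and let-7i-5p (-0.12 ± 0.11), with adjusted p of 0.877 by edgeR for both. For miR-16-5p the groups did not overlap either, in the lower direction, as held for 6.96% of all tested miRNAs. The share for the higher direction, that of miR-181b-5p, is not given here.

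**Figure D5:**
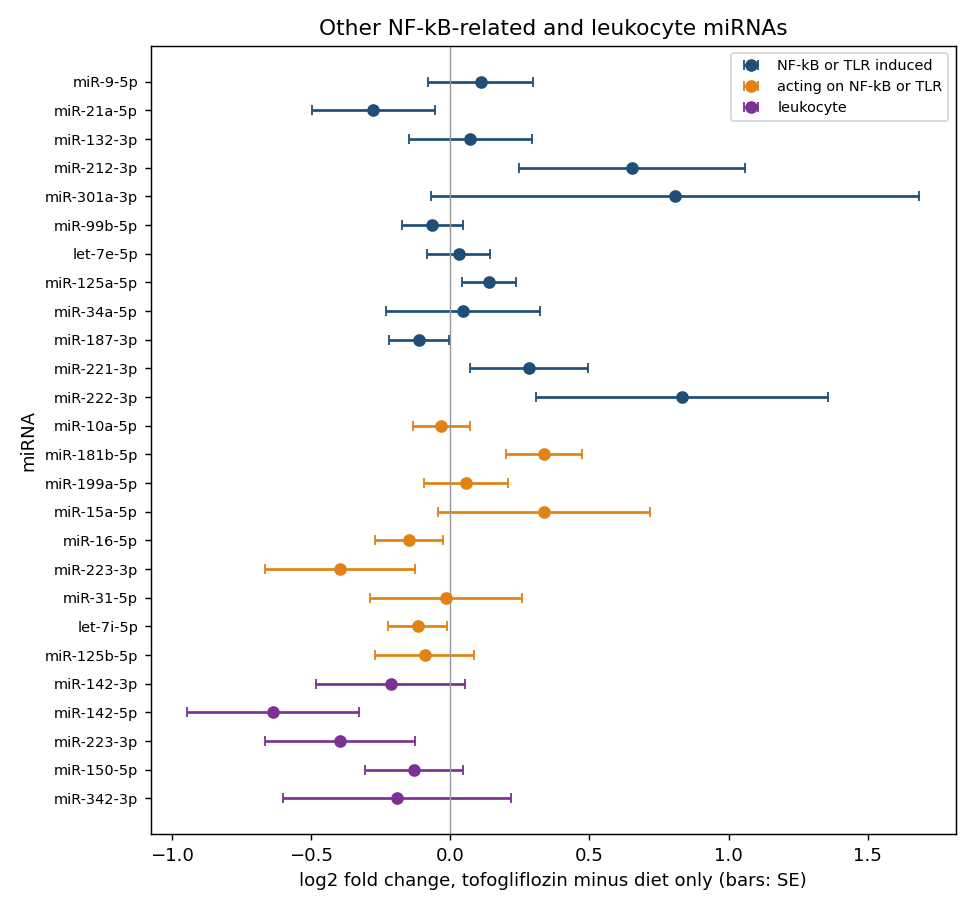
Log2 fold change (x axis, tofogliflozin minus diet only; bars are SE) of the tested miRNAs of both pathway lists and of the leukocyte markers (y axis), fitted on 3 libraries per group. The 5 leukocyte markers lie below 0, the induced list has 9 of 12 above 0, and no point passed an adjusted p of 0.05.

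The miRNAs whose levels followed the set most closely over the 6 libraries were then named, by the smallest root mean square difference of centred log2 CPM, leaving out the 4 miRNAs themselves and their opposite arms. For miR-146a-5p these were miR-203-3p (0.18) and miR-7219-3p (0.20), where the median over the tested miRNAs was 0.49. miR-203-3p, best known from skin epithelium, stood at 569, 661 and 396 CPM in diet-only mice and 415, 307 and 407 CPM in treated mice. For miR-147-3p they were miR-5107-3p (0.37) and again miR-203-3p (0.43), beside a median of 0.77, while miR-146a-5p, left out here, was at 0.37. Nearest to miR-146b-5p were miR-31-5p (0.17) and miR-342-5p (0.18), the latter from the hairpin of a leukocyte marker, beside a median of 0.47. Nearest to miR-155-5p were miR-361-3p (0.11) and miR-877-3p (0.13), both highest in tofogliflozin replicate 2 at 320 and 25.2 CPM, beside a median of 0.53. These distances are descriptions over 6 libraries that share their scaling.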

How the data were processed

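The authors deposited whole-number read counts per mature miRNA and precursor, 1 table of 2033 rows per library, with no normalization. The submitters' processing notes name cutadapt 1.14 and mm10. The aligner, counter and miRBase release were not given in the sources used here. Per the labels' protocols, RNA came from a NucleoSpin miRNA kit and libraries from a NEBNext small RNA kit. For the 75 names with repeated rows the largest count per library was kept; none of the 4 miRNAs had repeated rows. Counts were fitted by quasi-likelihood in edgeR 4.0.16 (R 4.3.3; 2-sided F-test, TMM, filterByExpr at a minimum count of 10 and total of 15, Benjamini-Hochberg over 460 miRNAs), as tofogliflozin minus diet only without covariates. DESeq2 1.42.0 was an alternative. Log2 CPM used a prior count of 2. Standard errors are the absolute log2 fold change over the square root of F. The filter removed at most 0.00905% of a library's counts.

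The 4 miRNAs and all lists were chosen with earlier results of these data known. Named were these 4, their opposite arms, up to 4 per pathway list by smallest p, every leukocyte marker, and the 2 nearest miRNAs of each. List names miR-142a were matched to miR-142 in the tables by hairpin. Sequences are from RefSeq (GRCm38.p6).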

Additional observations from a re-analysis of the deposited data

How the results depend on the processing

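The alternatives were other size factors, other filters, DESeq2, differing rows summed, the replicate block and leaving out each library. The number of called miRNAs was 0 except with no low-count filter (10 of 1026) and DESeq2 (1), and the cause was not tested. Without the filter 2 calls were lower, miR-146a-5p and miR-147-3p, and 8 higher; DESeq2 called none of the 4 miRNAs. The log2 fold change stayed below 0 for miR-146a-5p in 13 of 13 alternatives and for miR-147-3p in 12 of 12, since a filter of 10 CPM in 3 libraries removes the latter. With a library left out the values ran from -0.76 to -0.27 for miR-146a-5p, -0.32 to 0.24 for miR-146b-5p, -0.26 to 0.63 for miR-155-5p and -1.56 to -0.93 for miR-147-3p. Deviations of same-numbered mice from their group means had r of 0.003, -0.14 and -0.17 across 460 miRNAs, and 0 of 6 libraries correlated best with their own number. A fit with the replicate block called 0 miRNAs, and there miR-146a-5p, miR-146b-5p, miR-155-5p and miR-147-3p stood at -0.55, -0.10, 0.15 and -1.21. Depth limits miR-147-3p, which rests on 15 to 127 counts per library.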
